A study of Homo sapiens with 24 samples.

Results

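The genes described here encode the transcription factors that switch the cell division programme on and off: E2F1, E2F2, E2F3, E2F4, E2F5, E2F7, E2F8, FOXM1, MYBL2, and LIN54. They were chosen by symbol from the deposited table of read counts, in which all 10 of the 10 named genes are present among 14493 genes, and the symbols were listed with earlier results of these data known, although the rule itself uses no measured value. E2F proteins bind DNA together with a DP partner and control the genes for DNA replication. In cells that do not divide they are held by the pocket proteins RB1, RBL1, and RBL2, and cyclin-dependent kinases release them by phosphorylating the pocket proteins. E2F1, E2F2, and E2F3 are known mainly as activators, E2F4 and E2F5 as pocket protein partners that repress, and E2F7 and E2F8 as atypical repressors that bind without DP and restrain E2F1. LIN54 is the DNA-binding subunit of the MuvB core, which joins E2F4 and a pocket protein in the repressive DREAM complex of non-dividing cells and joins MYBL2 (B-MYB) and then FOXM1 to activate the genes of G2 phase and mitosis in dividing cells. Low expression of this programme is a known property of senescent cells.

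The libraries came from SKBR3, an established human breast cancer cell line with ERBB2 (HER2) amplification, and each of 8 groups held 3 libraries. The question was how senescence-like states induced by inhibitors of fatty acid synthesis compare with those induced by other drugs. In 6 groups the cells had been exposed to a drug, renewed at day 3 and collected at day 7: ND-646, which inhibits acetyl-CoA carboxylase (ACC), at 250 nmol/L, TVB-3166, which inhibits fatty acid synthase (FASN), at 250 nmol/L, the DNA-damaging agents bleomycin at 10 μmol/L and doxorubicin at 10 nmol/L, the CDK4/6 inhibitor palbociclib at 1 μmol/L, or the Aurora A inhibitor alisertib at 500 nmol/L. The remaining groups were untreated proliferating cells at day 0 and untreated cells at day 7, and no group of cells given the solvent alone was analysed here. The labels number the replicates without saying that they were separate cultures, so the p-values measure the spread between these libraries, which may be technical, in a cell line that stands for itself only.

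Total counts ranged from 29405121 to 44316330 per library. Of the marker lists, 7 of 7 luminal and HER2 amplicon genes were in the table, with ERBB2 between 5125 and 8828 CPM (counts scaled to the library's total with TMM factors), whereas 1 of 5 fibroblast genes (COL1A1, 6.46 to 15.2 CPM) and 0 of 5 blood cell genes were listed. ND-646 replicate 1 stood apart from the rest of its group: its Euclidean distance over the log2 CPM of 14078 genes was 82.0 and 85.3 to replicates 2 and 3, which were 41.4 apart, so ND-646 results that move with it are given with and without it. Bleomycin replicate 2 held the lowest level in its group of every gene described here except E2F4. In bulk RNA, fewer dividing cells and less transcript in each cell cannot be told apart.

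On the GRCh37 build used for alignment, the annotated spans were E2F1 at chr20:32263283-32274191 and MYBL2 at chr20:42295659-42345135, E2F2 at chr1:23832930-23857725, E2F3 at chr6:20402110-20493945, LIN54 at chr4:83831126-83934079, E2F8 at chr11:19245610-19263167, FOXM1 at chr12:2966846-2986340, E2F7 at chr12:77415028-77459349, and E2F4 at chr16:67226058-67232821. Counts were taken over exons, and 2 members share exon sequence with a counted gene on the opposite strand: FOXM1 shares 782 bases, 15.9% of its exons, with ITFG2, and E2F5 shares 991 bases, 16.5%, with RBIS. Whether the counting used strand is not given in the sources used here. ITFG2 averaged 12.8 CPM in untreated day-0 cells, well under the 217 CPM of FOXM1. In ND-646 cells, however, ITFG2 averaged 18.0 CPM beside 24.2 CPM for FOXM1, and in TVB-3166 cells 19.9 beside 53.5 CPM. FOXM1 levels in these drug groups are therefore uncertain as well. RBIS averaged 24.8 CPM in untreated day-0 cells, above the 5.16 CPM of E2F5, so E2F5 levels are uncertain to that extent. RBIS was lower than at day 0 in TVB-3166, palbociclib, doxorubicin, and alisertib cells (log2 fold changes of −0.35 to −0.56), the opposite direction to E2F5. In ND-646 cells RBIS was at 0.03 (SE 0.27), with libraries from 18.3 to 38.5 CPM, and in bleomycin cells at −0.30 (SE 0.15). Neither reached an adjusted p under 0.05. Against untreated day-7 cells RBIS was at −0.25 (SE 0.10) in TVB-3166 cells, the same direction as E2F5 there.

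Promoter sequences were taken from RefSeq (GRCh38.p14), from 250 bases before to 50 bases after a start site, and placed on GRCh37 by exact match. Those of 7 of the 10 genes are analysed here. They were searched on both strands for E2F sites (TTTGGCGC or TTTCGCGC), for the CHR element that LIN54 reads (TTTGAA or TTCGAA), and for the CCAAT box (CCAAT), which often accompanies a CHR element. An E2F site was present in E2F1, at positions −20 to −13 from the start, and in E2F2, at −42 to −35, in 2 of 7 members against 1.15% of all 35116 promoters of the same length. A CHR element was present in E2F3, at −65 to −60, and in LIN54 (16.4% of all promoters), and a CCAAT box in E2F1, E2F3, and E2F7 (34.6%). None of these letters occurred in the windows of MYBL2 and E2F4 or in the second window of E2F3. Variants of these letters were not searched for, so a window without a match may still hold a site. The 250 bases before the start are shown, 5′ to 3′ along the gene and with matches in capitals, for E2F1, E2F2, and E2F7, which were lower with most drugs, and for E2F3, which was not. E2F1 lies on the minus strand of chr20:32274192-32274441, E2F2 on the minus strand of chr1:23857726-23857975, E2F7 on the minus strand of chr12:77459350-77459599, and E2F3 on the plus strand of chr6:20401860-20402109.
E2F1: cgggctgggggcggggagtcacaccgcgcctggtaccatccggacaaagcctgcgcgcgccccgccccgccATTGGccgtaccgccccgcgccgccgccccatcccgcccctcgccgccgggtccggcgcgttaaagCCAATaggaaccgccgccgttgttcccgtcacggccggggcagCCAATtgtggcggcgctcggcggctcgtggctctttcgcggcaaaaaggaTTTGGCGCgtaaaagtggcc
E2F2: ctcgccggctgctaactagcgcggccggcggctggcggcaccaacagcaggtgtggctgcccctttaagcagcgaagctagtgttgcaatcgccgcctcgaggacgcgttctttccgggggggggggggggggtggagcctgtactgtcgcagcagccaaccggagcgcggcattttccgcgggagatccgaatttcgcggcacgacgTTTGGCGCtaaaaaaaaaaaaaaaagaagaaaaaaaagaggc
E2F7: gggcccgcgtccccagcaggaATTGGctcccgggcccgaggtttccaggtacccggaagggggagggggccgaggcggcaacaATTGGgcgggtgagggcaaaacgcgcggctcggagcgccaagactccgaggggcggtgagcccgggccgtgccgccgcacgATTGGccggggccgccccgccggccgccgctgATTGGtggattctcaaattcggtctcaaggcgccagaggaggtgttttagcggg
E2F3: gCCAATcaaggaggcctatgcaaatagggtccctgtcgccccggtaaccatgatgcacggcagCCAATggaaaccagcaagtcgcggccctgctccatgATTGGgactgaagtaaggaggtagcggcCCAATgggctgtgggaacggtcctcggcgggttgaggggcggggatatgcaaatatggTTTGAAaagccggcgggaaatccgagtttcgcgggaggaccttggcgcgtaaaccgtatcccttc
The E2F1 window holds an E2F site close to the start with CCAAT boxes further upstream, the E2F2 window an E2F site alone, the E2F7 window CCAAT boxes alone, and the E2F3 window a CHR element with CCAAT boxes upstream of it. A match describes the letters only, and binding was not measured.

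Against untreated day-0 cells, E2F1, E2F2, E2F7, E2F8, FOXM1, and MYBL2 fell in ND-646, TVB-3166, bleomycin, palbociclib, and doxorubicin cells, whereas E2F5 rose in all 6 drug groups. E2F5 rose in untreated day-7 cells too, and against these its rise held in palbociclib cells alone. E2F3 fell in ND-646 and TVB-3166 cells and rose in palbociclib and doxorubicin cells, E2F4 rose in palbociclib cells, and LIN54 fell in ND-646, TVB-3166, and bleomycin cells. The doxorubicin call of E2F3 and several others were lost in refits without 1 library, as given below for each gene. A gene passed where the Benjamini-Hochberg adjusted p of edgeR's quasi-likelihood test, taken over all genes tested, was under 0.05, and the verbs rose and fell are kept for genes that passed. Of the 10 genes, 8 were lower and 1 higher in ND-646 cells, where 18.8% of all genes tested were lower and 19.1% higher. In the same way, 8 were lower and 1 higher in TVB-3166 cells, where 27.7% of all genes tested were lower and 27.4% higher. Then 7 were lower and 1 higher in bleomycin cells, where 25.3% of all genes tested were lower and 24.1% higher. With the CDK4/6 inhibitor, 6 were lower and 3 higher in palbociclib cells, where 27.2% of all genes tested were lower and 26% higher. The counts were 6 lower and 2 higher in doxorubicin cells (background 24.8% and 23.7%) and 4 lower and 1 higher in alisertib cells (background 19.6% and 17.7%). The number of higher members was near or under the share of all genes in every drug group. The median log2 fold change of the 10 genes was −2.69 with ND-646, −1.91 with TVB-3166, −1.94 with bleomycin, −1.98 with palbociclib, −0.83 with doxorubicin, and −0.38 with alisertib, beside medians of −0.01 to 0.02 over all genes tested. These comparisons share the same 3 untreated day-0 libraries.

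**Figure D1:**
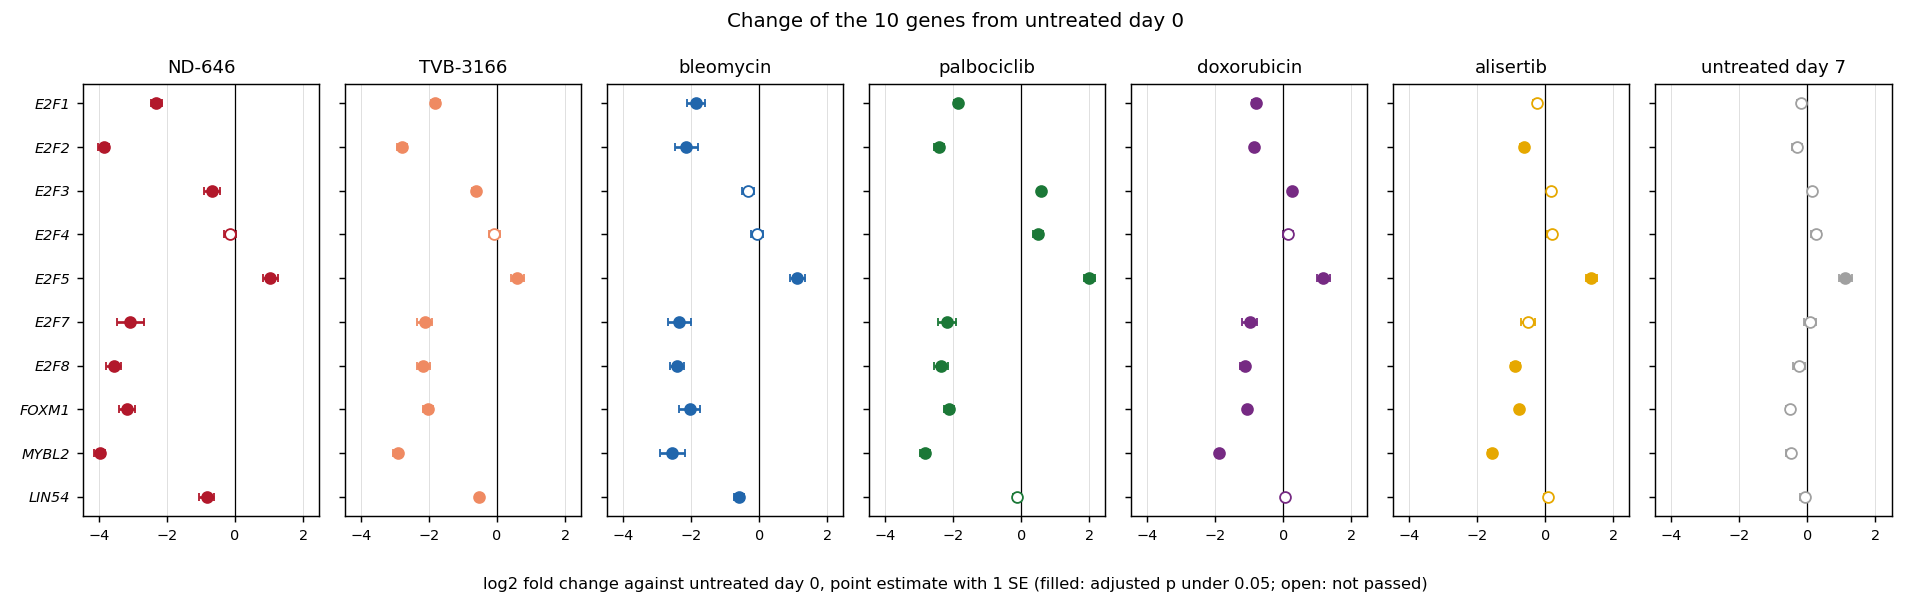
Log2 fold change of each of the 10 genes against untreated day-0 cells in the 6 drug groups and in untreated day-7 cells, with 1 SE, filled where the adjusted p was under 0.05. The points of E2F1, E2F2, E2F7, E2F8, FOXM1, and MYBL2 lie left of 0 in all 6 drug groups, farthest in ND-646 (MYBL2 at −3.97) and nearest in alisertib (E2F1 at −0.25, open), while E2F5 lies right of 0 in every panel.

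MYBL2, which turns the MuvB core into an activator, showed the largest fall of the 10 genes from day 0 in every drug group. Its level was 261, 251, and 223 CPM in the untreated day-0 libraries and 197, 141, and 183 CPM in those of day 7. ND-646 cells held 17.8, 13.3, and 16.2 CPM and TVB-3166 cells 38.9, 27.6, and 30.2 CPM. Every library of the 2 fatty acid synthesis inhibitors thus lay under 40 CPM, and every untreated library above 140 CPM. Bleomycin libraries ranged widely, at 64.8, 17.7, and 43.4 CPM, and palbociclib libraries were at 41.1, 27.3, and 35.4 CPM. Doxorubicin libraries were at 64.03, 69.9, and 64.9 CPM and alisertib libraries at 89.8, 73.8, and 84.3 CPM. No drug-treated library reached the lowest untreated library. The log2 fold change against day 0 was −3.97 (SE 0.17, adjusted p = 6.60e-06) in ND-646 cells, a 15.7-fold lower level. It was −2.92 (SE 0.14, adjusted p = 2.23e-07) in TVB-3166, −2.55 (SE 0.36, adjusted p = 0.000456) in bleomycin, and −2.82 (SE 0.15, adjusted p = 1.30e-06) in palbociclib cells. Doxorubicin cells showed −1.87 (SE 0.09, adjusted p = 2.65e-06) and alisertib cells −1.57 (SE 0.10, adjusted p = 2.02e-05), which left 27.3% and 33.7% of the day-0 level. Ordered by mean level, untreated day 7 and alisertib differed from each other, as did alisertib and doxorubicin, and no other neighbouring groups passed the test, including doxorubicin and bleomycin.

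FOXM1, the forkhead factor that activates genes of G2 phase and mitosis, stood at 245, 209, and 198 CPM at day 0 and at 169.7, 133, and 149 CPM in untreated day-7 cells. It was at 27.2, 16.5, and 28.9 CPM in ND-646 libraries, at 65.8, 44.4, and 50.2 CPM in TVB-3166 libraries, and at 59.9, 41.3, and 48.6 CPM in palbociclib libraries. None of these 9 libraries overlapped with the untreated ones. Bleomycin libraries held 75.1, 26.7, and 56.5 CPM, a spread in which the highest was near the TVB-3166 level and the lowest near that of ND-646. Doxorubicin libraries held 105, 108, and 97.2 CPM and alisertib libraries 144, 115, and 126 CPM, with 1 alisertib library above the lowest of untreated day 7. The log2 fold change against day 0 was −3.18 (SE 0.23, adjusted p = 2.95e-05) in ND-646, −2.02 (SE 0.15, adjusted p = 1.68e-06) in TVB-3166, and −2.12 (SE 0.14, adjusted p = 2.66e-06) in palbociclib cells. It was −2.04 (SE 0.30, adjusted p = 0.000516) in bleomycin, −1.06 (SE 0.10, adjusted p = 4.93e-05) in doxorubicin, and −0.76 (SE 0.11, adjusted p = 0.0007605) in alisertib cells. In the order of mean levels, neighbours differed between alisertib and doxorubicin, between doxorubicin and TVB-3166, and between palbociclib and ND-646, while TVB-3166, bleomycin, and palbociclib were not separated.

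Of the activating E2F genes, E2F1 and E2F2 fell together. E2F1 was at 52.95, 56.1, and 47.6 CPM in untreated day-0 libraries, 9.55, 10.8, and 11.5 CPM in ND-646 libraries, and 16.9, 13.2, and 14.5 CPM in TVB-3166 libraries. The ND-646 level was 20.2% of that at day 0, a log2 fold change of −2.31 (SE 0.16, adjusted p = 2.33e-05), and the TVB-3166 level 28.5%, at −1.81 (SE 0.12, adjusted p = 9.86e-07). Bleomycin and palbociclib cells held 19.8, 7.86, and 15.8 and 14.7, 12.8, and 16.1 CPM, with log2 fold changes of −1.85 (SE 0.27, adjusted p = 0.000509) and −1.85 (SE 0.12, adjusted p = 2.24e-06). Doxorubicin cells, at 30.5, 28.4, and 29.9 CPM, lay between the groups above and the untreated cells, with −0.81 (SE 0.10, adjusted p = 0.000162). In alisertib cells, at 39.9, 42.4, and 49.6 CPM, E2F1 overlapped with untreated cells of day 0 and day 7, and its log2 fold change of −0.25 (SE 0.11, adjusted p = 0.0967) did not pass. Neighbouring groups in the order of E2F1 levels differed between alisertib and doxorubicin and between doxorubicin and TVB-3166.

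E2F2 had the second largest fall in ND-646 cells. The untreated day-0 libraries held 33.1, 34.4, and 34.9 CPM and the ND-646 libraries 2.44, 2.296, and 2.42 CPM, a 14.4-fold lower level with little spread in either group (log2 fold change −3.85 (SE 0.16, adjusted p = 6.60e-06)). TVB-3166 libraries were at 5.62, 3.99, and 5.21 CPM, with −2.79 (SE 0.14, adjusted p = 3.17e-07), and palbociclib libraries at 6.78, 5.24, and 7.296 CPM, with −2.41 (SE 0.14, adjusted p = 1.64e-06). In bleomycin libraries the values 10.96, 3.32, and 9.09 CPM varied more than 3-fold around a log2 fold change of −2.13 (SE 0.33, adjusted p = 0.000735). The levels in doxorubicin libraries, 18.3, 18.9, and 19.2 CPM, and in alisertib libraries, 24.9, 18.4, and 23.7 CPM, were under all day-0 values, with −0.85 (SE 0.09, adjusted p = 9.55e-05) and −0.61 (SE 0.12, adjusted p = 0.00313). Untreated day-7 libraries, at 30.98, 21.5, and 30.2 CPM, overlapped with those of alisertib.

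E2F3 took another course. It was at 44.5, 46.9, and 45.4 CPM at day 0, at 26.8, 30.9, and 30.8 CPM in TVB-3166 cells, and at 67.1, 71.4, and 65.1 CPM in palbociclib cells. All TVB-3166 libraries were below and all palbociclib libraries above the untreated cells of both days, with log2 fold changes against day 0 of −0.62 (SE 0.10, adjusted p = 0.000299) and 0.57 (SE 0.09, adjusted p = 0.000308). In ND-646 libraries E2F3 was at 18.8, 36.8, and 29.8 CPM, lowest in replicate 1, and its log2 fold change of −0.69 (SE 0.23, adjusted p = 0.0448) became −0.46 (adjusted p = 0.01098) without that library. The call in ND-646 cells was lost without ND-646 replicate 3 or without any of the day-0 libraries, with log2 fold changes of −0.72 to −0.68 and adjusted p of 0.0819 to 0.118. Doxorubicin libraries held 51.8, 52.6, and 58.7 CPM, a log2 fold change of 0.26 (SE 0.09, adjusted p = 0.0331) whose call was lost without any of the 6 libraries (log2 fold changes of 0.21 to 0.29 and adjusted p of 0.0508 to 0.125). Bleomycin libraries, at 35.6, 26.1, and 46.3 CPM, straddled the day-0 level, with −0.34 (SE 0.18, adjusted p = 0.144), and passed without bleomycin replicate 3, at −0.55 (adjusted p = 0.0259). Alisertib libraries were at 48.9, 53.3, and 51.9 CPM, with 0.17 (SE 0.09, adjusted p = 0.138).

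**Figure D2:**
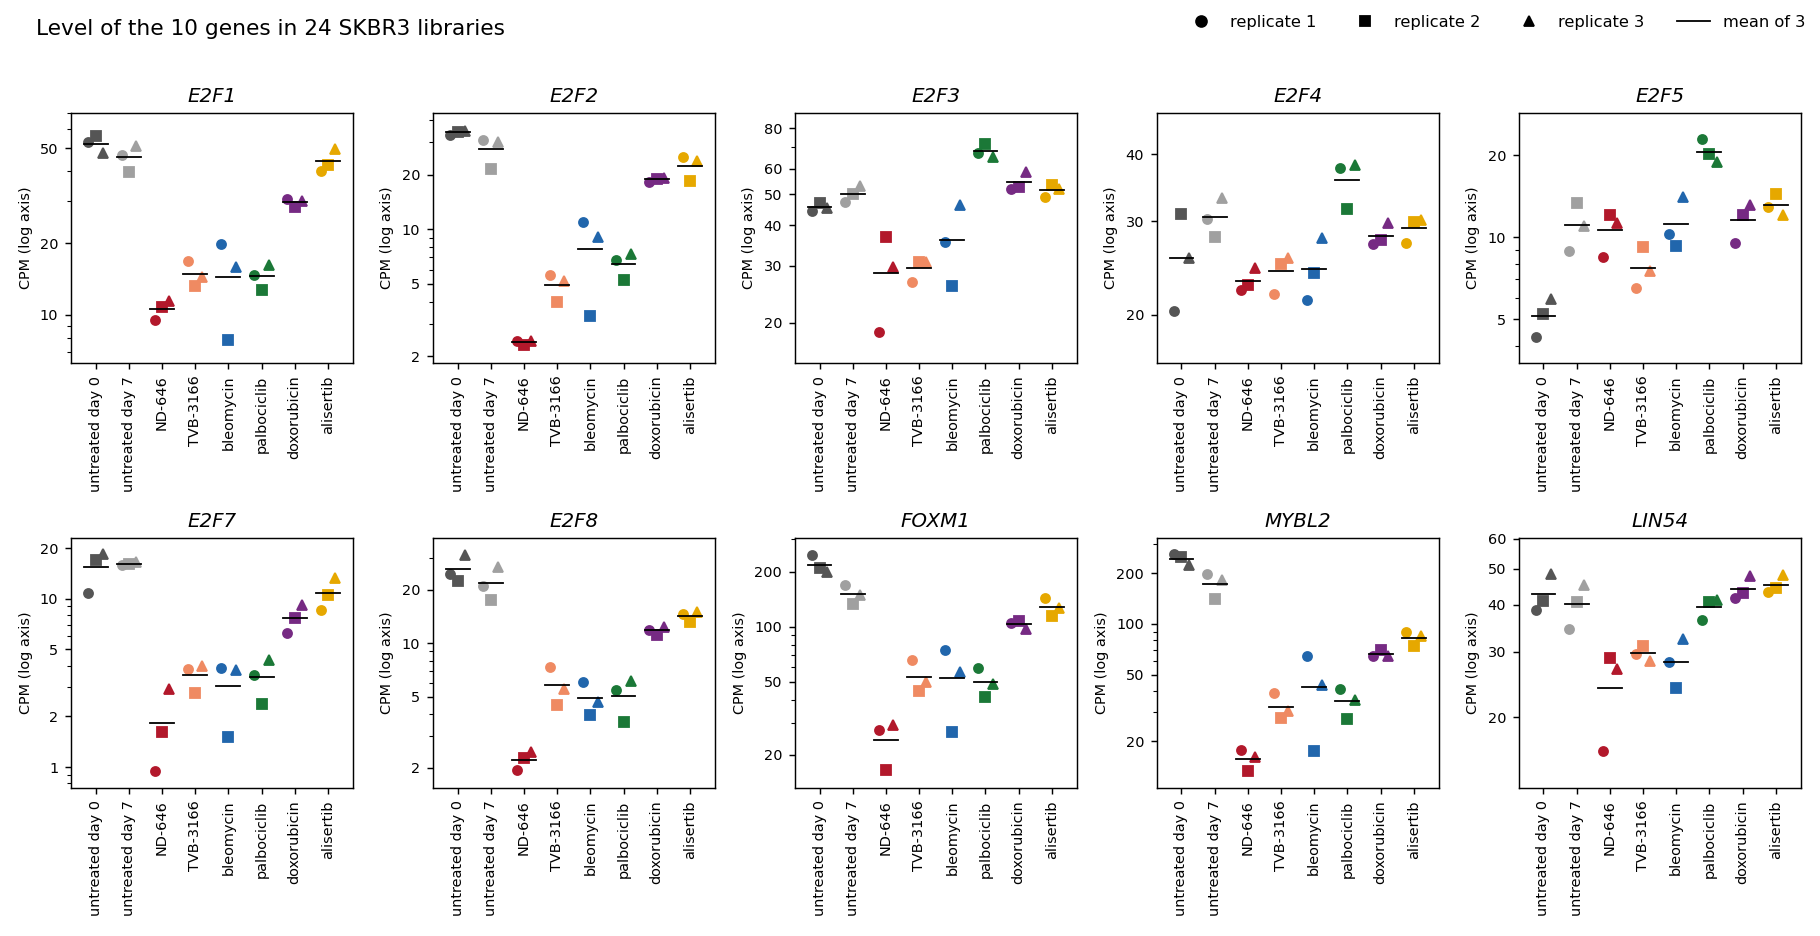
Level in CPM (log axis) of each gene in each of the 24 libraries, by group, with the replicate number as the symbol and a bar at the mean of 3. For MYBL2 the untreated libraries lie above 140 CPM and all drug-treated ones below 90 CPM, E2F3 and E2F4 are highest in palbociclib cells, and E2F5 is lowest in the untreated day-0 libraries.

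E2F4 and E2F5, the E2F proteins that act with pocket proteins in repression, did not follow E2F1 and E2F2. E2F4 was the gene that changed least: its group means ran from 23.2 ± 1.21 CPM (SD, n = 3) in ND-646 cells to 35.9 ± 3.73 CPM in palbociclib cells. The day-0 libraries, 20.3, 30.9, and 25.6 CPM, spread as widely as most of the group means. In palbociclib cells, at 37.8, 31.6, and 38.3 CPM, it rose by 0.49 (SE 0.15, adjusted p = 0.01998) on the log2 scale, a call lost without palbociclib replicate 1, at 0.44 (adjusted p = 0.0688), or replicate 3, at 0.44 (adjusted p = 0.0748). In the other 5 drug groups its log2 fold changes against day 0 were −0.16 to 0.19 and did not pass, with a 95% interval of −0.57 to 0.26 in ND-646 cells, and no neighbouring groups in the order of its levels differed.

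E2F5 was the gene that rose throughout. Its day-0 libraries held 4.32, 5.21, and 5.94 CPM, the palbociclib libraries 22.9, 20.2, and 18.8 CPM, and the alisertib libraries 12.9, 14.4, and 12.1 CPM. Palbociclib cells therefore had 4.002-fold the day-0 level, with a log2 fold change of 2.001 (SE 0.16, adjusted p = 5.59e-06), and alisertib cells 2.55-fold, with 1.35 (SE 0.16, adjusted p = 0.000299). In ND-646 cells, at 8.48, 12.1, and 11.3 CPM, it was 1.03 (SE 0.22, adjusted p = 0.00706), in bleomycin cells, at 10.3, 9.29, and 14.03 CPM, 1.12 (SE 0.21, adjusted p = 0.00203), and in doxorubicin cells, at 9.55, 12.1, and 13.2 CPM, 1.18 (SE 0.18, adjusted p = 0.000577). The smallest rise was in TVB-3166 cells, at 6.49, 9.21, and 7.53 CPM, with 0.59 (SE 0.19, adjusted p = 0.0207), and this call was lost without TVB-3166 replicate 2 or 3 or day-0 replicate 1 or 2 (log2 fold changes of 0.45 to 0.61 and adjusted p of 0.0509 to 0.107). Untreated day-7 libraries were at 8.88, 13.3, and 11.04 CPM, so they too lay above all 3 day-0 libraries, at 1.11 (SE 0.19, adjusted p = 0.0474). Without day-0 replicate 2 or 3 or any of the day-7 libraries that call was lost, with log2 fold changes of 0.95 to 1.24 and adjusted p of 0.05102 to 0.194. Only palbociclib and alisertib, at the top of the order, and TVB-3166 and untreated day 0, at the bottom, differed as neighbours.

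The atypical repressors E2F7 and E2F8 fell along with the activators E2F1 and E2F2. E2F8 was at 24.6, 22.4, and 31.4 CPM at day 0 and at 1.93, 2.26, and 2.46 CPM in ND-646 libraries, an 11.8-fold lower level (log2 fold change −3.57 (SE 0.21, adjusted p = 1.57e-05)). TVB-3166, bleomycin, and palbociclib libraries lay between 3.62 and 7.33 CPM, with log2 fold changes of −2.17 (SE 0.19, adjusted p = 5.39e-06), −2.41 (SE 0.20, adjusted p = 4.13e-05), and −2.36 (SE 0.21, adjusted p = 1.05e-05). The doxorubicin values 11.9, 11.2, and 12.4 CPM and the alisertib values 14.7, 13.2, and 14.99 CPM were again intermediate, at −1.13 (SE 0.14, adjusted p = 0.000183) and −0.87 (SE 0.14, adjusted p = 0.00119). For E2F7, the day-0 libraries held 10.8, 17.04, and 18.4 CPM and the ND-646 libraries 0.942, 1.61, and 2.91 CPM, which spread about 3-fold. In ND-646 cells the log2 fold change of E2F7 was −3.07 (SE 0.40, adjusted p = 0.000536), and −2.77 (adjusted p = 8.18e-05) without replicate 1. It was −2.13 (SE 0.23, adjusted p = 2.01e-05) in TVB-3166, −2.34 (SE 0.34, adjusted p = 0.000517) in bleomycin, −2.17 (SE 0.25, adjusted p = 6.51e-05) in palbociclib, and −0.99 (SE 0.22, adjusted p = 0.00422) in doxorubicin cells. In alisertib libraries, at 8.61, 10.5, and 13.3 CPM, E2F7 overlapped with the low day-0 replicate 1, and its value of −0.51 (SE 0.21, adjusted p = 0.0854) did not pass, but it did without that library, at −0.70 (adjusted p = 0.00402). Neighbours in the order differed for E2F7 between doxorubicin and TVB-3166, and for E2F8 there, between untreated day 7 and alisertib, and between bleomycin and ND-646.

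LIN54, the DNA-binding MuvB subunit, changed less than its partner MYBL2. It was at 38.7, 41.1, and 48.4 CPM at day 0, 29.5, 31.1, and 28.4 CPM in TVB-3166 cells, and 28.1, 24.05, and 32.4 CPM in bleomycin cells, so both drug groups were below every day-0 library. The log2 fold changes were −0.52 (SE 0.11, adjusted p = 0.00197) and −0.59 (SE 0.14, adjusted p = 0.00666). ND-646 libraries held 16.2, 28.9, and 27.03 CPM, with −0.84 (SE 0.23, adjusted p = 0.0197), and −0.62 (adjusted p = 0.00301) without replicate 1. The ND-646 call was lost without day-0 replicate 2 or 3, with log2 fold changes of −0.87 to −0.74 and adjusted p of 0.0534 to 0.0757. In palbociclib, doxorubicin, and alisertib cells the log2 fold changes of −0.12, 0.06, and 0.08 did not pass, with 95% intervals of −0.36 to 0.13, −0.18 to 0.31, and −0.15 to 0.31. Palbociclib and TVB-3166 were the only neighbours in the order of LIN54 levels to differ.

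Between day 0 and day 7 few genes of untreated cells passed the adjusted threshold, which with 3 libraries a group does not show that the rest were unchanged. Of the 10 genes, 0 were lower, where 0.198% of all genes tested were, and 1, E2F5, was higher (0.389% of all genes). By an unadjusted p under 0.05, 2 were lower (11.7% of all genes) and 1 higher (12.2%), and DESeq2 likewise called 2 lower (4.58%) and 1 higher (4.31%), so at an unadjusted p the count is near the share of all genes. The 2 were FOXM1, with a log2 fold change of −0.52 (SE 0.11, adjusted p = 0.0656) in edgeR's test, and MYBL2, with −0.48 (SE 0.13, adjusted p = 0.0861). Every day-7 library was below every day-0 library for both genes, and by DESeq2 they were at −0.53 (adjusted p = 0.00243) and −0.50 (adjusted p = 0.008996). E2F2 was also lower in each day-7 library, at −0.30 (SE 0.14, adjusted p = 0.221). The median over the 10 genes was −0.12.

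Untreated day-7 cells, collected on the same day as the drug-treated cells, gave another reference, and all 6 comparisons with it share its 3 libraries. The labels give a renewal at day 3 for the drug groups and none for untreated day-7 cells, so drug and renewal cannot be told apart in these comparisons. Against it E2F1, E2F2, E2F7, E2F8, FOXM1, and MYBL2 again fell in ND-646, TVB-3166, bleomycin, palbociclib, and doxorubicin cells. In TVB-3166 cells 10 of 10 genes were lower (26.1% of all genes tested) and 0 higher (25.4%), and in ND-646 cells 9 were lower (17.1%) and 0 higher (17.2%). In bleomycin cells 7 were lower (23.2%) and 0 higher (22.4%), and in doxorubicin cells 6 were lower (21.5%) and 0 higher (21.9%). Palbociclib cells had 6 lower (22.9%) and 2 higher (22%), the latter near the share of all genes. Alisertib cells had 3 lower (9.49%) and 0 higher (9.55%). By edgeR at an unadjusted p under 0.05 and by DESeq2, 0 of the 10 genes were higher in ND-646, TVB-3166, bleomycin, doxorubicin, and alisertib cells too, where 17.6% to 28.3% of all genes were higher at that unadjusted p and 10.5% to 23.8% by DESeq2.

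The largest falls against day 7 were those of E2F2 and MYBL2 in ND-646 cells, at −3.54 (SE 0.20, adjusted p = 5.47e-05) and −3.47 (SE 0.19, adjusted p = 5.47e-05), which left 8.61% and 9.01% of the untreated level. In alisertib cells MYBL2 was lower, at −1.06 (SE 0.12, adjusted p = 0.000463), as were E2F7, at −0.56 (SE 0.15, adjusted p = 0.02398), and E2F8, at −0.59 (SE 0.14, adjusted p = 0.0165). With the replicate number as a block, since same-numbered alisertib and day-7 libraries deviated together, E2F2 and FOXM1 passed as well, at −0.28 (adjusted p = 0.0196) and −0.21 (adjusted p = 0.0207). The number of genes that passed in alisertib cells was thus 3 without and 5 with the block, and it was 1, MYBL2, without alisertib replicate 2 or without untreated day-7 replicate 3, and 4 without untreated day-7 replicate 2, which added E2F2, at −0.45 (adjusted p = 0.0297). Without alisertib replicate 2, E2F7 was at −0.54 (adjusted p = 0.0772) and E2F8 at −0.54 (adjusted p = 0.0661), and without day-7 replicate 3 they were at −0.54 (adjusted p = 0.0814) and −0.43 (adjusted p = 0.0714). E2F7 was also lost without alisertib replicate 1, at −0.42 (adjusted p = 0.0531), and E2F8 without alisertib replicate 3, at −0.63 (adjusted p = 0.0546). In doxorubicin cells FOXM1 was at −0.52 (SE 0.10, adjusted p = 0.00115) and MYBL2 at −1.37 (SE 0.11, adjusted p = 3.60e-06).

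The rise of E2F5 held against untreated day-7 cells in palbociclib cells alone, at 0.91 (SE 0.15, adjusted p = 0.000569). In ND-646, bleomycin, doxorubicin, and alisertib cells its log2 fold changes against day 7 were −0.07, 0.03, 0.09, and 0.26 and did not pass, with 95% intervals of −0.56 to 0.42, −0.42 to 0.48, −0.28 to 0.46, and −0.07 to 0.59. In TVB-3166 cells it was lower, at −0.51 (SE 0.18, adjusted p = 0.03300), a call lost without TVB-3166 replicate 1 or 3 or day-7 replicate 2 or 3 (log2 fold changes of −0.51 to −0.36 and adjusted p of 0.0767 to 0.1196). E2F3 was lower in TVB-3166 cells, at −0.76 (SE 0.09, adjusted p = 5.00e-05), and in ND-646 cells, at −0.82 (SE 0.23, adjusted p = 0.02696), or −0.60 (adjusted p = 0.00141) without ND-646 replicate 1, and higher in palbociclib cells, at 0.44 (SE 0.08, adjusted p = 0.00103). The ND-646 call for E2F3 was lost without ND-646 replicate 3 or any day-7 library (log2 fold changes of −0.86 to −0.78 and adjusted p of 0.0542 to 0.0934). In doxorubicin cells E2F3 was at 0.14 (SE 0.09, adjusted p = 0.215) against day 7 and did not pass. LIN54 was lower in TVB-3166, ND-646, and bleomycin cells, at −0.43 (SE 0.11, adjusted p = 0.00572), −0.74 (SE 0.23, adjusted p = 0.0367), and −0.50 (SE 0.14, adjusted p = 0.0171). The ND-646 value for LIN54 was −0.53 (adjusted p = 0.00479) without ND-646 replicate 1 and failed without replicate 3 or any day-7 library (log2 fold changes of −0.84 to −0.65 and adjusted p of 0.0508 to 0.134), and the bleomycin value failed without day-7 replicate 3, at −0.40 (adjusted p = 0.08295).

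E2F4 was lower against day 7 in TVB-3166 cells, at −0.33 (SE 0.10, adjusted p = 0.0178), and in ND-646 cells, at −0.40 (SE 0.13, adjusted p = 0.0457), or −0.38 (adjusted p = 0.0155) without ND-646 replicate 1. The TVB-3166 call was lost without TVB-3166 replicate 1 or day-7 replicate 3 (log2 fold changes of −0.27 in each refit and adjusted p of 0.0617 to 0.0922), and the ND-646 call without ND-646 replicate 2 or 3 or any day-7 library (log2 fold changes of −0.47 to −0.34 and adjusted p of 0.0677 to 0.198). In bleomycin cells E2F3, at −0.47 (SE 0.18, adjusted p = 0.0561), and E2F4, at −0.31 (SE 0.13, adjusted p = 0.0775), missed the threshold, although every bleomycin library was below every day-7 library for both. Deviations of same-numbered bleomycin and day-7 libraries correlated only weakly, at 0.107 to 0.142. With the replicate block E2F3 and E2F4 both passed, at −0.50 (adjusted p = 0.0243) and −0.31 (adjusted p = 0.0441). Without bleomycin replicate 3 they also passed, at −0.69 (adjusted p = 0.0112) and −0.42 (adjusted p = 0.0364). In palbociclib cells E2F4 was at 0.24 (SE 0.11, adjusted p = 0.0859) and passed without palbociclib replicate 2, at 0.34 (adjusted p = 0.02602).

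**Figure D3:**
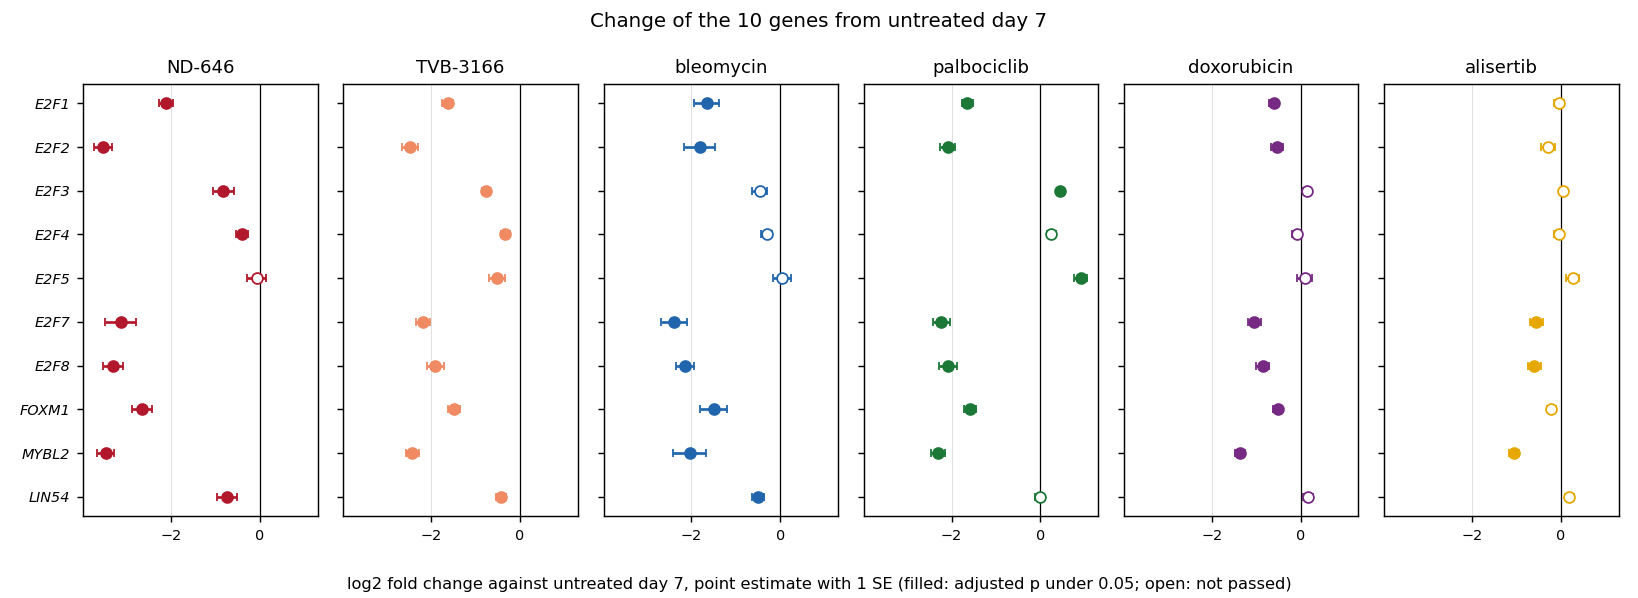
Log2 fold change of each gene against untreated day-7 cells in the 6 drug groups, with 1 SE, filled where the adjusted p was under 0.05. In TVB-3166 all 10 points are filled and left of 0, in alisertib 3 are filled (E2F7, E2F8, and MYBL2), and E2F5 is right of 0 and filled in palbociclib alone (0.91).

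The drug groups were then compared with each other in 15 pairs, with no untreated library in the fits, and 86 of the 150 tests of a gene in a pair passed. Of all genes tested, 0.717% to 44.5% passed in either direction, depending on the pair. Doxorubicin and alisertib cells had higher levels than TVB-3166 cells for 9 of 10 genes (44.5% of all genes tested passed in either direction) and 10 of 10 genes (39.3%). They also had higher levels than ND-646 cells for 8 of 10 genes each (25.1% and 25.9%). Each count was 6 without any single doxorubicin or alisertib library. The alisertib count was 7 without ND-646 replicate 3 and 9 without ND-646 replicate 1, which added E2F4, at −0.31 (adjusted p = 0.01997) in ND-646 against alisertib cells. Bleomycin cells were lower than doxorubicin cells for 5 genes (12.1%) and than alisertib cells for 7 (38%). The 5 became 0, 2, and 1 without doxorubicin replicates 1, 2, and 3. MYBL2 was −2.09 (SE 0.14, adjusted p = 0.0002797) in ND-646 against doxorubicin cells and −1.04 (SE 0.11, adjusted p = 1.65e-05) in TVB-3166 against doxorubicin cells. E2F1 was −1.57 (SE 0.11, adjusted p = 3.69e-06) in TVB-3166 against alisertib cells and −1.59 (SE 0.27, adjusted p = 0.00224) in bleomycin against alisertib cells. MYBL2 in bleomycin against alisertib cells was −0.97 (SE 0.35, adjusted p = 0.0539), and −1.13 (adjusted p = 0.00236) with the replicate block, for which these libraries paired, and it passed without bleomycin replicate 1, at −1.44 (adjusted p = 0.006802), or replicate 2, at −0.61 (adjusted p = 0.0172). Doxorubicin and alisertib cells differed in 3 genes (25.8%), a number of members near the share of all genes. They were E2F1, at −0.56 (SE 0.09, adjusted p = 0.00133), FOXM1, at −0.30 (SE 0.09, adjusted p = 0.0261), and MYBL2, at −0.31 (SE 0.08, adjusted p = 0.0197), all lower with doxorubicin. The FOXM1 and MYBL2 calls were lost without replicate 1 or 3 of either drug, with log2 fold changes of −0.31 to −0.21 and adjusted p of 0.0657 to 0.104 for FOXM1 and log2 fold changes of −0.29 to −0.24 and adjusted p of 0.0547 to 0.0855 for MYBL2.

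Between ND-646 and TVB-3166 cells 0 of 10 genes passed in edgeR's test (0.717% of all genes tested), while 6 were lower in ND-646 at an unadjusted p under 0.05 (7.85% of all genes) and 4 by DESeq2 (3.24%). Same-numbered libraries of these drugs deviated together, and with the replicate block 3 genes were lower in ND-646: E2F8, at −1.37 (adjusted p = 0.0478), FOXM1, at −1.17 (adjusted p = 0.0223), and MYBL2, at −1.04 (adjusted p = 0.0223). Without ND-646 replicate 1, E2F2, E2F8, FOXM1, and MYBL2 were lower, at −1.07 (adjusted p = 0.01502), −1.30 (adjusted p = 0.00938), −1.24 (adjusted p = 0.00748), and −1.14 (adjusted p = 0.00266). Against bleomycin cells 2 of 10 genes were lower in ND-646 cells (7.81%): E2F2, at −1.72 (SE 0.41, adjusted p = 0.04099), and E2F8, at −1.15 (SE 0.26, adjusted p = 0.03503). Both calls were lost without ND-646 replicate 2 or 3 or bleomycin replicate 1 or 3 (log2 fold changes of −1.73 to −1.37 and adjusted p of 0.09096 to 0.159 for E2F2, and log2 fold changes of −1.24 to −0.95 and adjusted p of 0.0803 to 0.133 for E2F8). With the replicate block FOXM1 and MYBL2 passed as well, at −1.06 (adjusted p = 0.00441) and −1.25 (adjusted p = 0.008700), so that the count rose from 2 to 4, and they passed without bleomycin replicate 2, at −1.45 (adjusted p = 0.0363) and −1.79 (adjusted p = 0.0144). Between TVB-3166 and bleomycin cells 0 of 10 passed (28.5%), and 1 was lower in TVB-3166 cells both at an unadjusted p under 0.05 (20.5% of all genes) and by DESeq2 (14.8%). Without bleomycin replicate 2, E2F2, E2F3, E2F5, and MYBL2 were lower in TVB-3166 than in bleomycin cells, at −1.01 (adjusted p = 0.00418), −0.47 (adjusted p = 0.0235), −0.64 (adjusted p = 0.0356), and −0.74 (adjusted p = 0.0116).

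Palbociclib cells were compared with those of the other drugs. For E2F1, E2F2, E2F7, E2F8, FOXM1, and MYBL2, none passed between palbociclib and TVB-3166 or bleomycin cells, for instance FOXM1 at 0.10 in TVB-3166 against palbociclib cells (95% interval −0.24 to 0.43). With the replicate block, for which TVB-3166 and palbociclib libraries paired, E2F2 was lower in TVB-3166 cells, at −0.38 (adjusted p = 0.0451). Without bleomycin replicate 2, E2F2 and MYBL2 were higher in bleomycin than in palbociclib cells, at 0.64 (adjusted p = 0.0392) and 0.64 (adjusted p = 0.0372). E2F3, E2F4, E2F5, and LIN54 were the 4 genes that passed in TVB-3166 against palbociclib cells (40.2%) and in bleomycin against palbociclib cells (30.6%), all higher with palbociclib, a number of members near the share of all genes. In the first of these pairs the log2 fold changes were −1.20 (SE 0.08, adjusted p = 2.05e-06) for E2F3, −0.57 (SE 0.10, adjusted p = 0.00126) for E2F4, −1.41 (SE 0.14, adjusted p = 2.53e-05) for E2F5, and −0.41 (SE 0.09, adjusted p = 0.00306) for LIN54. In the second they were −0.91, −0.55, −0.88, and −0.48, of which the call of E2F4 was lost without palbociclib replicate 1 or 3 (log2 fold changes of −0.51 to −0.50 and adjusted p of 0.0535 to 0.05803) and that of LIN54 without palbociclib replicate 2 or 3 (log2 fold changes of −0.46 to −0.44 and adjusted p of 0.0545 to 0.07199). ND-646 cells were lower than palbociclib cells for 8 of 10 genes (25.2%), E2F3 at −1.26 (SE 0.23, adjusted p = 0.00777), or −1.03 (adjusted p = 5.61e-05) without ND-646 replicate 1, and E2F5 at −0.97 (SE 0.18, adjusted p = 0.00785), and the count was 4 without palbociclib replicate 1 or 3. Set against doxorubicin and alisertib cells, palbociclib cells had 6 genes lower and 3 higher in each pair (25% and 28.3% of all genes in either direction). The 3 higher genes were E2F3, at 0.32 (SE 0.08, adjusted p = 0.0153) and 0.41 (SE 0.07, adjusted p = 0.00165), E2F4, at 0.35 (SE 0.10, adjusted p = 0.0259) and 0.31 (SE 0.10, adjusted p = 0.0336), and E2F5, at 0.83 (SE 0.14, adjusted p = 0.00186) and 0.66 (SE 0.11, adjusted p = 0.00137). Those of E2F4 were lost without most of the libraries (log2 fold changes of 0.30 to 0.33 and adjusted p of 0.0534 to 0.101 without doxorubicin replicate 1 or 2 or palbociclib replicate 1 or 3, and log2 fold changes of 0.25 to 0.33 and adjusted p of 0.0671 to 0.122 without any alisertib library or palbociclib replicate 1 or 3), and that of E2F3 against doxorubicin without doxorubicin replicate 1, at 0.29 (adjusted p = 0.0724). With the replicate block, for which these libraries paired, LIN54 was lower with palbociclib than with doxorubicin, at −0.17 (adjusted p = 0.04702), and than with alisertib, at −0.19 (adjusted p = 0.02703).

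Levels of different genes can be compared only per length, and CPM per kilobase of exon was used for that. In untreated day-0 cells MYBL2 stood highest, at 88.2 ± 6.94 CPM per kilobase (SD, n = 3), followed by FOXM1, at 44.2 ± 5.01, and E2F1, at 19.4 ± 1.61. E2F5 was lowest there, at 0.861 ± 0.136 CPM per kilobase, and E2F7 came next, at 2.45 ± 0.643. MYBL2, FOXM1, and E2F1 thus stood above the rest before treatment. In ND-646 cells E2F4 stood first, at 6.44 ± 0.336 CPM per kilobase, with a range of mean ± SD that overlapped those of MYBL2, at 5.68 ± 0.8300, of E2F3, at 5.48 ± 1.75, and of FOXM1, at 4.92 ± 1.36. E2F3 stood first in palbociclib cells, at 13.1 ± 0.617 CPM per kilobase, beside MYBL2, at 12.5 ± 2.498. E2F5 had passed E2F2, at 3.44 ± 0.341 against 1.18 ± 0.196 CPM per kilobase, in palbociclib cells and likewise in ND-646 cells, at 1.77 ± 0.316 against 0.437 ± 0.0144. In doxorubicin and alisertib cells the day-0 order of the first 3 genes, MYBL2, FOXM1, and E2F1, was the order found as well, though the ranges of mean ± SD of MYBL2 and FOXM1 overlapped in alisertib cells, at 29.8 ± 2.92 and 26.1 ± 2.97 CPM per kilobase.

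Genes that these factors are known to control were described from lists of 24 for the E2F targets of the G1/S transition and 24 for the FOXM1 and MYBL2-MuvB targets of G2 phase and mitosis. Of the G1/S list, 24 genes were lower than at day 0 in ND-646, TVB-3166, bleomycin, and doxorubicin cells, 23 in palbociclib cells, and 21 in alisertib cells, and 0 were higher. Of all genes tested, 18.8% to 27.7% were lower and 17.7% to 27.4% higher than at day 0, depending on the drug. The median log2 fold change of this list was −2.30, −1.90, −1.77, −1.62, −0.78, and −0.47 in ND-646, TVB-3166, bleomycin, palbociclib, doxorubicin, and alisertib cells, beside −0.01 to 0.02 over all genes. In ND-646 cells the largest falls in it were those of RRM2, a subunit of ribonucleotide reductase, at −3.87 (SE 0.17, adjusted p = 6.69e-06), and TYMS, thymidylate synthase, at −3.56 (SE 0.25, adjusted p = 2.62e-05). The smallest were those of SLBP, which binds histone mRNA, at −0.89 (SE 0.16, adjusted p = 0.00246), and TK1, thymidine kinase, at −1.38 (SE 0.19, adjusted p = 0.000745), and TK1 was the gene that did not pass in palbociclib cells (−0.15 (SE 0.11, adjusted p = 0.268)). Of the G2/M list, 23 genes were lower in ND-646, TVB-3166, and bleomycin cells, 24 in palbociclib cells, 21 in doxorubicin cells, and 15 in alisertib cells, with medians of −2.70, −1.52, −1.59, −1.50, −0.78, and −0.42 in ND-646, TVB-3166, bleomycin, palbociclib, doxorubicin, and alisertib cells. The same shares of all genes stand beside these counts. The largest falls in ND-646 cells were those of the mitotic kinase PLK1, at −3.17 (SE 0.26, adjusted p = 5.01e-05), and the kinesin KIF20A, at −3.14 (SE 0.26, adjusted p = 4.91e-05). CDC25B, a phosphatase that activates CDK1, was the gene that did not pass in ND-646, TVB-3166, and bleomycin cells, at −0.13, 0.10, and 0.22, and it fell in palbociclib cells, at −0.81 (SE 0.11, adjusted p = 0.000121). Against untreated day-7 cells, 24 G1/S genes were lower in ND-646, TVB-3166, and bleomycin cells, 23 in palbociclib, 22 in doxorubicin, and 10 in alisertib cells, and 0 were higher. The medians of the G1/S list were then −1.97, −1.52, −1.44, −1.33, −0.47, and −0.24 in the same order of drugs. Of the G2/M list, 23 were lower than at day 7 in ND-646, TVB-3166, and bleomycin cells, 24 in palbociclib, 22 in doxorubicin, and 10 in alisertib cells, with medians of −2.51, −1.38, −1.37, −1.38, −0.53, and −0.32. Of all genes tested, 9.49% in alisertib cells and 17.1% to 26.1% in the other drug groups were lower than at day 7. In alisertib cells fewer genes of both lists thus passed against day 7 than against day 0, and the share of all genes that were lower also fell, from 19.6% to 9.49%. In untreated day-7 cells 0 genes of either list passed against day 0 in edgeR's test, with medians of −0.24 and −0.16. At an unadjusted p under 0.05, 12 of the G1/S and 7 of the G2/M genes were lower there, beside 11.7% of all genes, and DESeq2 called 5 of each, beside 4.58%.

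**Figure D4:**
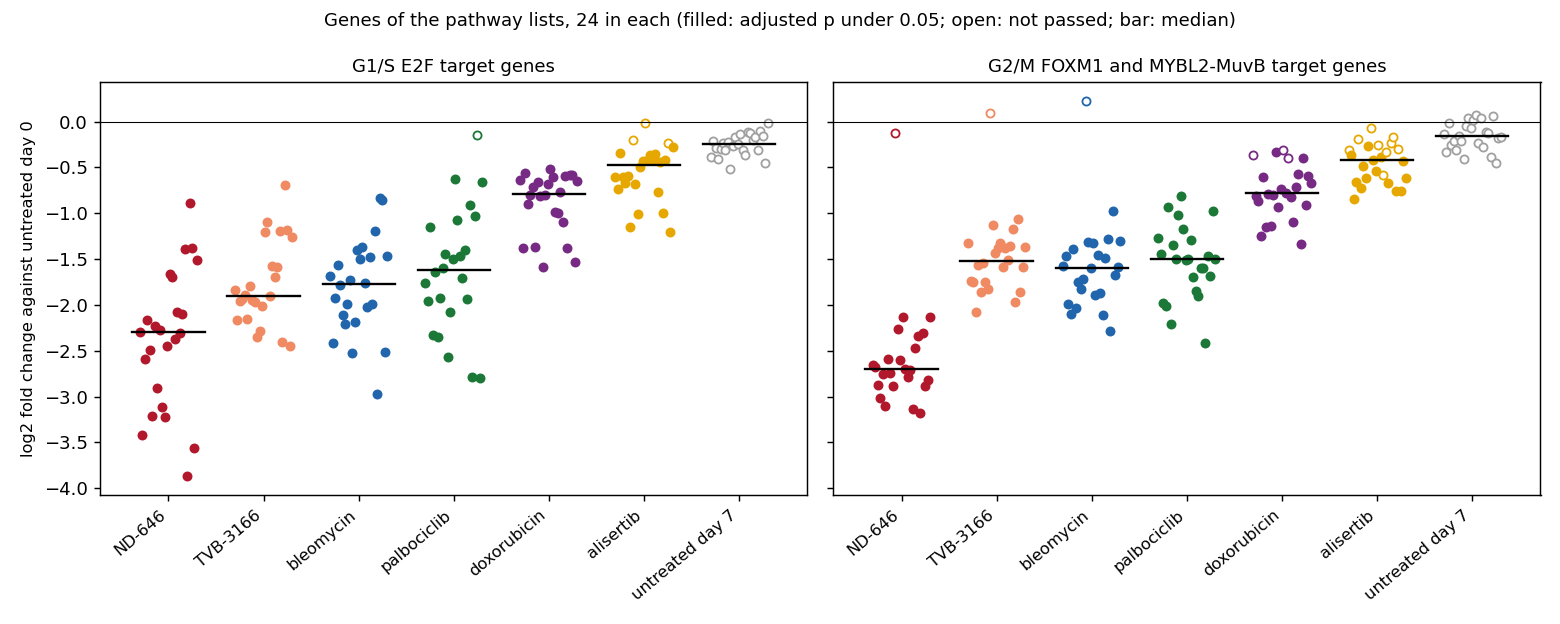
Log2 fold change against untreated day-0 cells of the 24 genes of the G1/S list (left) and the 24 of the G2/M list (right) in the 6 drug groups and in untreated day-7 cells, with a bar at the median and filled points for an adjusted p under 0.05. The medians run from −2.30 and −2.70 in ND-646 to −0.47 and −0.42 in alisertib cells, and every point of untreated day-7 cells is open.

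Against untreated day-0 cells, the partners of the 10 genes moved in both directions. Of the pocket proteins, RBL2, which carries the DREAM complex, rose in all 6 drug groups, from 0.50 (SE 0.10, adjusted p = 0.00259) in doxorubicin to 1.16 (SE 0.11, adjusted p = 9.59e-06) in TVB-3166 cells, and was at 0.64 (SE 0.12, adjusted p = 0.0521) in untreated day-7 cells, where it did not pass. RBL1 fell in 5 drug groups, all but alisertib, with −1.31 (SE 0.24, adjusted p = 0.00302) in ND-646 and −1.32 (SE 0.12, adjusted p = 1.39e-05) in palbociclib cells, and RB1 fell in bleomycin, palbociclib, doxorubicin, and alisertib cells, at −0.40, −0.59, −0.32, and −0.26 on the log2 scale. Of the DP partners, TFDP1 fell in all 6 drug groups, from −0.28 in alisertib to −1.21 in bleomycin cells, while TFDP2 fell in TVB-3166 cells, at −0.46 (SE 0.12, adjusted p = 0.00722), and rose in palbociclib, doxorubicin, and alisertib cells, at 1.01, 0.39, and 0.42. Of the 4 other MuvB subunits, LIN9 fell in ND-646, TVB-3166, bleomycin, and doxorubicin cells, with −1.66 (SE 0.24, adjusted p = 0.000985) in ND-646 and −0.08 (SE 0.10, adjusted p = 0.558) in palbociclib cells, where it did not pass. LIN37 passed in no drug group, LIN52 was lower in palbociclib cells alone, at −0.45 (SE 0.16, adjusted p = 0.0375), and RBBP4 in bleomycin cells alone, at −0.38 (SE 0.14, adjusted p = 0.0414).

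Several of these calls were lost against untreated day-7 cells. RBL2 was higher than at day 7 in TVB-3166 cells, at 0.53 (adjusted p = 0.00157), and in palbociclib cells, at 0.31 (adjusted p = 0.0245), but did not pass in ND-646, bleomycin, doxorubicin, and alisertib cells, at 0.14, 0.11, −0.12, and 0.14. RB1 was lower in palbociclib cells alone, at −0.31 (adjusted p = 0.00739), and RBL1 in the same 5 drug groups as against day 0. TFDP1 was lower in 5 drug groups and did not pass in alisertib cells, at −0.21 (adjusted p = 0.0610), and TFDP2 was lower in ND-646 and TVB-3166 cells and higher in palbociclib cells alone, at 0.78 (adjusted p = 6.43e-05). LIN9 was lower in ND-646, TVB-3166, and bleomycin cells, and at −0.08 (adjusted p = 0.563) in doxorubicin cells. LIN37 was higher in TVB-3166 and bleomycin cells, at 0.45 and 0.51, LIN52 passed in no drug group, and RBBP4 was lower in ND-646, TVB-3166, and bleomycin cells, at −0.35, −0.24, and −0.56.

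The kinases that release E2F also split against day 0. Of the 7 G1 cyclin and kinase genes in the table, CCND1 and CDK6 rose in all 6 drug groups, most in palbociclib cells, at 1.29 (SE 0.12, adjusted p = 1.57e-05) and 1.31 (SE 0.12, adjusted p = 1.31e-05). CCND3, CCNE2, and CDK2 fell in all 6, with CCNE2, itself an E2F target, at −2.53 (SE 0.28, adjusted p = 0.000245) in ND-646 and −2.80 (SE 0.24, adjusted p = 4.89e-05) in bleomycin cells. CCNE1 fell in ND-646, TVB-3166, bleomycin, and doxorubicin cells, with −1.28 (SE 0.19, adjusted p = 0.00103) in ND-646 cells, and was at −0.25 (SE 0.11, adjusted p = 0.0812) in palbociclib cells. CDK4 fell in TVB-3166, bleomycin, doxorubicin, and alisertib cells, most in bleomycin cells, at −0.50 (SE 0.13, adjusted p = 0.0111). Of the 5 CDK inhibitor genes in the table, CDKN2B rose in all 6 drug groups, from 1.01 (SE 0.25, adjusted p = 0.00483) in TVB-3166 to 2.98 (SE 0.25, adjusted p = 7.82e-06) in palbociclib cells. CDKN1A rose in ND-646, TVB-3166, bleomycin, and palbociclib cells, at 1.82 (SE 0.42, adjusted p = 0.00906) in ND-646 cells, and was at 0.32 (SE 0.27, adjusted p = 0.346) in doxorubicin and −0.48 (SE 0.28, adjusted p = 0.192) in alisertib cells. CDKN2C, an E2F target, fell in all 6, from −0.67 in alisertib to −1.82 in ND-646 cells, CDKN1B rose in TVB-3166 cells alone, at 0.32 (SE 0.11, adjusted p = 0.0243), and CDKN2D fell in palbociclib cells alone, at −1.28 (SE 0.24, adjusted p = 0.00116). Against untreated day-7 cells, CCND1 was higher and CCND3 lower in all 6 drug groups, and CDKN2B was higher in all 6, from 1.05 in TVB-3166 to 3.03 in palbociclib cells. CDK6 was higher in 4 groups and did not pass in ND-646, at 0.60 (adjusted p = 0.106), or alisertib cells, at 0.18 (adjusted p = 0.358). CCNE2, CDK2, and CDKN2C were lower in 5 groups and did not pass in alisertib cells, at −0.32, −0.29, and −0.19 (adjusted p = 0.195, 0.0811, and 0.22). CDKN1A was higher than at day 7 in doxorubicin cells as well, at 0.72 (adjusted p = 0.00253), CDK4 was lower in palbociclib cells as well, at −0.25 (adjusted p = 0.0238), CCNE1 was lower in the same 4 groups as against day 0, CDKN2D again fell in palbociclib cells alone, and CDKN1B was lower in palbociclib cells alone, at −0.50 (adjusted p = 0.00186). None of these partner, cyclin, kinase, and inhibitor genes passed between untreated day-7 and day-0 cells, where edgeR at an unadjusted p under 0.05 gave 4 genes lower and 3 higher, beside 11.7% and 12.2% of all genes, and DESeq2 2 lower and 1 higher, beside 4.58% and 4.31%.

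Within the 24 libraries, the log2 CPM of E2F1, E2F2, E2F7, E2F8, FOXM1, and MYBL2 correlated with each other at Pearson's r of 0.927 to 0.974, and E2F5 with them at −0.3898 to −0.228. These values describe libraries that fall into 8 groups, share their untreated references, and differ in drug. The genes outside the list whose pattern was most like that of a member, of 14068 searched, were, for E2F1, MCM5 (r = 0.979), MCM10 (r = 0.977), and FAM111B (r = 0.976), for E2F2 MCM2 (r = 0.991), CDCA5 (r = 0.9896), and EXO1 (r = 0.987), and for E2F7 MCM10 (r = 0.979), CLSPN (r = 0.973), and MCM7 (r = 0.972). Beside E2F8 stood SKA1 (r = 0.983), KIF11 (r = 0.9804), and CCNA2 (r = 0.979), beside FOXM1 CEP55 (r = 0.9903), TPX2 (r = 0.9901), and KIF4A (r = 0.9899), and beside MYBL2 TYMS (r = 0.985), NCAPG (r = 0.984), and CCNF (r = 0.984). The patterns nearest to LIN54 were those of FANCM (r = 0.952), SASS6 (r = 0.949), and ATAD5 (r = 0.948). E2F3, E2F4, and E2F5 had other genes beside them, led by TMEM64 (r = 0.937), RHOBTB1 (r = 0.888), and RRAS2 (r = 0.893), followed by ZMIZ1 (r = 0.9302) and KIAA1586 (r = 0.925) for E2F3, FECH (r = 0.845) and ZC3H8 (r = 0.841) for E2F4, and PPP1R9A (r = 0.878) and PYGL (r = 0.876) for E2F5.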

How the data were processed

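RNA-seq libraries of SKBR3 cells numbered 24, with 3 in each of 8 groups taken from the labels. Reads were aligned to GRCh37 by HISAT2 and transcripts assembled by StringTie, and the authors deposited unnormalized whole-number counts of reads for each gene. The methods name a total RNA kit and the labels an mRNA kit. No count in the table is under 1, so genes lacking reads in any library are not analysed here.

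The main test was the 2-sided quasi-likelihood test of edgeR 4.0.16 (glmQLFit, then glmQLFTest; R 4.3.3) on genes kept by filterByExpr, with TMM scaling and with only both compared groups in a fit, in 7 comparisons with day 0, 6 with day 7, and 15 pairs of drugs. All 10 genes passed the filter in every fit. SE and 95% intervals are of the log2 fold change. CPM used TMM factors over all libraries, and exon lengths came from the GRCh37 annotation. Library distances and correlations used log2 CPM with a prior count of 2. With 3 libraries against 3 an exact permutation test cannot go below p = 0.1, so p-values come from models across all genes. The lowest count of a member was 22 reads, for E2F7 in ND-646 replicate 1, where counting error is not small.

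Same-numbered libraries were taken as paired where all 3 correlations of their deviations from the group means were over 0.1, in 11 of 28 comparisons and in none with day 0. The labels do not say what the numbers mark. The limit of 0.1 is low and was applied to the same data, and differently numbered libraries were not compared. The pairing is therefore weakly based, and the unblocked fits are the main test. Blocked values stand where they changed a call.

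The members and gene lists were chosen with earlier results of these data known. All 10 members are named, every gene of lists of 8 or fewer, the 2 lowest and 2 highest changes in ND-646 cells of longer lists, and the 3 genes most like each member. CDC25B and TK1 are also named where a count left 1 gene out. CCND2 and CDKN1C are not analysed here. Alternatives were DESeq2 1.42.0, RLE size factors, library totals, no filter, a minimum of 10 counts per library, a joint fit of all libraries, a fold change of at least 2 with a raw p under 0.05, the replicate block, leaving out each library, and a shorter promoter window of 150 bases. The fits were tested on simulated data.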

Additional observations from a re-analysis of the deposited data

How the results depend on the processing

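No call of a member reversed its direction under the alternatives run. The counts in this section describe how calls moved, and the share of all genes under each rule is not given beside them. RLE size factors and a minimum of 10 counts in every library changed 0 of the 280 calls of a member. Against day 0, a fold change of at least 2 with a raw p under 0.05 left 4 genes in doxorubicin and 2 in alisertib cells, and of the pathway list genes 14 in doxorubicin and 5 in alisertib cells. In untreated day-7 cells the count of 1 was 3 by DESeq2, 0 without a filter, and 3 with the replicate block, and the lists' 0 became 13 by DESeq2, 2 with all libraries in one fit, and 11 with the block. All libraries in one fit left 28 pathway genes in alisertib cells and, against day 7, 1 member, and lost the call of E2F3 in doxorubicin cells. Against day 7, the fold change rule left 6 genes in TVB-3166, 2 in doxorubicin, and 1 in alisertib cells. Between drugs that rule gave 57 calls, losing 35 of those of the main test and adding 6. The block gave 5 genes in alisertib against day 7. Numbers did not pair libraries with those of day 0, where the block added E2F7 in alisertib cells. The libraries of ND-646, TVB-3166, palbociclib, and doxorubicin did not pair with those of day 7 either.

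Leaving out each library gave, against day 0, 7 to 9 genes in ND-646, 8 to 9 in TVB-3166, bleomycin, and palbociclib, 7 in doxorubicin, 5 to 6 in alisertib, and 0 to 1 in untreated day-7 cells. Against day 7 it gave 6 to 9 in ND-646, 8 to 10 in TVB-3166, 6 to 9 in bleomycin, 8 to 9 in palbociclib, 6 in doxorubicin, and 1 to 4 in alisertib cells, and between drugs 75 to 95. The pathway lists gave 35 to 50 genes in alisertib cells and 0 to 1 in untreated day-7 cells. Calls changed in 25 of 420 refits of a gene against day 0, 30 of 360 against day 7, and 101 of 900 between drugs. With 3 libraries a group, the spread in ND-646 and bleomycin limits small differences, and counts of E2F7 in ND-646 cells are the lowest, at under 3 CPM.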
